A study of Mus musculus with 6 samples.

Results

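The genes described here are those of H2, the major histocompatibility complex of the mouse, with the genes that supply, load and switch on its products. They are the 44 symbols of the deposited gene table that begin with H2- plus B2m, Cd74, Ciita, Nlrc5, Tap1, Tap2, Tapbp, Psmb8 and Psmb9, which makes 53 of the 24062 symbols in the table. Gene expression was measured by RNA sequencing of auditory nerve from young adult mice, in 3 wildtype and 3 Vcan knockout libraries. Vcan encodes versican, a chondroitin sulfate proteoglycan of the extracellular matrix, and the question of the series was which transcripts of the nerve change when it is deficient. Each library held RNA from the pooled nerves of both ears of 1 mouse, so the p-values measure the spread between mice together with that of dissection and library preparation. The labels give the strain of both groups as C57BL/6, and the series' design text specifies C57BL/6J for the wildtype animals. The sample titles name C57BL/6 for the wildtype group only. These sources do not say which part of Vcan was altered, on which strain the alteration was made or how often the line was crossed to C57BL/6.

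Class I molecules are a heavy chain paired with beta 2-microglobulin, the product of B2m, and show peptides from inside the cell to cytotoxic T cells and natural killer cells. The peptides are cut by the proteasome, in part through its immune subunits Psmb8 and Psmb9, pumped into the endoplasmic reticulum by the transporter Tap1 and Tap2, and loaded with the help of tapasin, the product of Tapbp. Class II molecules are pairs of an alpha and a beta chain that show peptides from outside the cell to helper T cells. They are made mainly by dendritic cells, B cells and macrophages, and their chains are escorted by the invariant chain, the product of Cd74. Nlrc5 and Ciita are the coactivators that switch on class I and class II genes. In nerve, resident macrophages are a known source of class II, while many cell types carry class I. Mouse strains differ in which H2 genes they carry and express, most of all among the class Ib genes of the Q and T regions, so the genes were also searched for any that was lost or gained between the groups.

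Of the 53 members, 10 had 0 counts in every library, 34 passed the filter on low counts and could be tested, and 25 had a mean of at least 1 CPM, which are counts per 1e+06 of the library total after scaling by the TMM method. Library totals were 74530860 to 92513887 counts. The markers of Schwann cells (8 of 8 detected, 7569 to 13509 CPM in sum) and of spiral ganglion neurons (11 of 11 detected, 7317 to 14119 CPM) were abundant in all 6 libraries, and these are the cells of the labelled tissue. Wildtype 3 stood apart, with correlations of 0.9449 to 0.9546 with the other libraries, while the other pairs reached 0.9537 to 0.9837. The libraries did not group by genotype alone. Knockout 1 was closer to wildtype 1 (0.9745) than to knockout 2 (0.9592) or knockout 3 (0.9601). The closest pairs were knockout 2 with knockout 3 (0.9837) and wildtype 1 with wildtype 2 (0.9813). Vcan, the targeted gene, had 8.36, 9.61 and 7.32 CPM in the wildtype and 5.44, 2.70 and 2.88 CPM in the knockout libraries, a log2 fold change of −1.20 (SE 0.32) with an adjusted p of 0.558 in edgeR and 0.0334 in DESeq2. Its groups did not overlap, but transcripts remained in each knockout library.

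No H2 member passed an adjusted p of 0.05 in edgeR's quasi-likelihood test, in which 23 of 16722 genes (0.138%) did, 11 of them higher (0.0658%) and 12 lower (0.0718%) in the knockout. With any 1 library left out, 3 to 14 genes passed, the fewest without wildtype 2 or knockout 2 and the most without knockout 1. DESeq2 called 1 member, H2-Bl, among 252 of 18146 genes (1.39%, or 0.667% of genes higher and 0.722% lower). H2-Bl was also the only member under 0.05 in the authors' deposited table, among 228 of 16952 genes (1.34%). Without adjustment, 6 of the 34 tested members had an edgeR p under 0.05, against 5.2% of all genes tested. Of these, 5 were higher in the knockout (2.56% of all genes) and 1 was lower (2.64% of all genes). Those 6 were the class II genes H2-Aa, H2-Ab1, H2-Eb1 and Cd74 and the class Ib genes H2-Bl and H2-M3. The groups did not overlap for 2 members, H2-Bl higher and H2-M3 lower in the knockout, against 10.3% of all genes tested (5.42% higher, 4.93% lower). The members' median log2 fold change was 0.07, and that of all genes −0.01.

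H2-Bl stood out as a gene close to absent from the wildtype nerves and present in the knockout nerves. It is a class I gene of the T region, at chr17:36080110-36084249 on the minus strand (GRCm38.p6, the assembly behind mm10). RefSeq annotates it as a transcribed pseudogene and GENCODE as a polymorphic pseudogene, a gene with an intact reading frame in some mouse strains only. Because class I genes resemble each other, reads can be credited to a relative, so the sequence of H2-Bl is set beside that of H2-K1, the most abundant class I gene per length here. Both lines give the first 99 bases from the start codon in the GENCODE vM21 transcripts, and capitals in H2-K1 mark each base that differs from H2-Bl, which leaves 79 of 99 identical.
H2-Bl: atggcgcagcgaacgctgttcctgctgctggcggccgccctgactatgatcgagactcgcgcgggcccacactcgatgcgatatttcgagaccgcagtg
H2-K1: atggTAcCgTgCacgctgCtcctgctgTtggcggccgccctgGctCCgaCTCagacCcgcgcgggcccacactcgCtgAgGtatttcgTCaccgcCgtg
The differing bases are scattered along the stretch. Of all 50-base stretches of the H2-Bl transcript, 11.8% also occurred in a gene at another locus, most often H2-Q1, and the first 612 bases held none.

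H2-Bl had 7, 4 and 9 counts in the wildtype and 138, 102 and 97 counts in the knockout libraries. Every knockout library thus held far more than any wildtype library. In CPM the means were 0.0779 ± 0.0308 (SD, n = 3) in wildtype and 1.35 ± 0.406 (SD, n = 3) in knockout, a log2 fold change of 4.09 (SE 0.49, unadjusted 95% interval 2.92 to 5.27). The adjusted p was 0.0589 in edgeR, just above the threshold, and 1.5e-10 in DESeq2. The authors' deposited table gives an adjusted p of 6.39e-11, with a log2 fold change of 2.04 on a scale of its own. Leaving out single libraries kept the log2 fold change between 3.81 and 4.36 and gave adjusted p values of 0.135 to 0.330 in edgeR. Without wildtype 3, the library that stood apart, the value was 4.36. Even in the knockout, H2-Bl was a low transcript: per kilobase of exon it had 0.802 ± 0.242 CPM (SD, n = 3) there, against 42.5 for H2-K1.

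The genes around H2-Bl were then looked at, a window chosen after the values were seen. Within 150 kb on either side 14 genes could be tested, and in 5 of them, H2-Bl included, every knockout library was above every wildtype library, against 5.42% of all genes tested. Abcf1 lay lower without overlap. The other 4 that were higher are no members by symbol. Gm8801, a transcribed pseudogene at chr17:35947154-35953317, had 13, 19 and 24 counts in wildtype and 370, 587 and 561 in knockout. Its log2 fold change of 4.76 (SE 0.34) had an adjusted p of 0.00806 in edgeR and 3.5e-40 in DESeq2, and it was the only gene of the H2 interval to pass in edgeR. In edgeR that p became 0.0675 without wildtype 2, 0.0684 without knockout 2 and 0.0636 without knockout 3. Only 2.36% of its stretches occurred in a gene at another locus, most of them in its neighbour Ppp1r10.

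The remaining 3 genes of the stretch lie among the T genes. A930015D03Rik, a long noncoding RNA that lies antisense to H2-T24, H2-T23 and part of H2-T22, had 494, 673 and 489 counts in wildtype and 698, 1115 and 970 in knockout. Its log2 fold change was 0.77 (SE 0.21), with an adjusted p of 0.556 in edgeR and 0.0454 in DESeq2. Gm6034 had 4, 0 and 3 counts against 28, 16 and 12, a log2 fold change of 2.98 (SE 0.94) with an adjusted p of 0.694 in edgeR. C920025E04Rik, which RefSeq names H2-T-ps, had 55, 64 and 66 counts against 112, 108 and 134, a log2 fold change of 0.97 (SE 0.30). For these 3 genes sequence shared with other loci is larger, 26.1%, 42.0% and 29.4% of stretches, so their counts are uncertain. Whether the counting used strand is not given in the sources used here, so reads of A930015D03Rik and of the T genes opposite it cannot be told apart.

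The other tested genes lying between Gm8801 and H2-Bl had log2 fold changes of −0.60 to 0.10. Abcf1, Prr3 and Gnl1, which lie next to Gm8801, had log2 fold changes of −0.19, 0.10 and 0.01. H2-T23, the mouse Qa-1 gene, whose product shows leader peptides of other class I chains to natural killer cells, had 32.8, 39.6 and 77.2 CPM in wildtype and 28.6, 39.3 and 31.1 CPM in knockout. The high value was that of wildtype 3, and the other 5 libraries lay together. Over all 6 libraries the log2 fold change was −0.60 (SE 0.33). H2-T24 had a log2 fold change of −0.17 (SE 0.60), with overlapping groups. H2-T22 had 2, 0 and 1 counts in wildtype and 0 in each knockout library. Beyond H2-Bl, H2-T10 had a log2 fold change of 0.52 (SE 0.35), with overlapping groups. H2-T3, the gene of the thymus leukaemia antigen, was near the limit of detection, with 12, 0 and 0 counts in wildtype and 17, 19 and 6 in knockout, a log2 fold change of 1.78 (SE 1.33). The counts of H2-T22, H2-T10 and H2-T23 are uncertain, since 44.7%, 41.6% and 29.8% of their stretches occur at other loci, those of H2-T22 mostly in H2-T10. The deposited counts hold no genotype, and whether the 2 groups carried different H2 haplotypes was not tested.

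**Figure D1:**
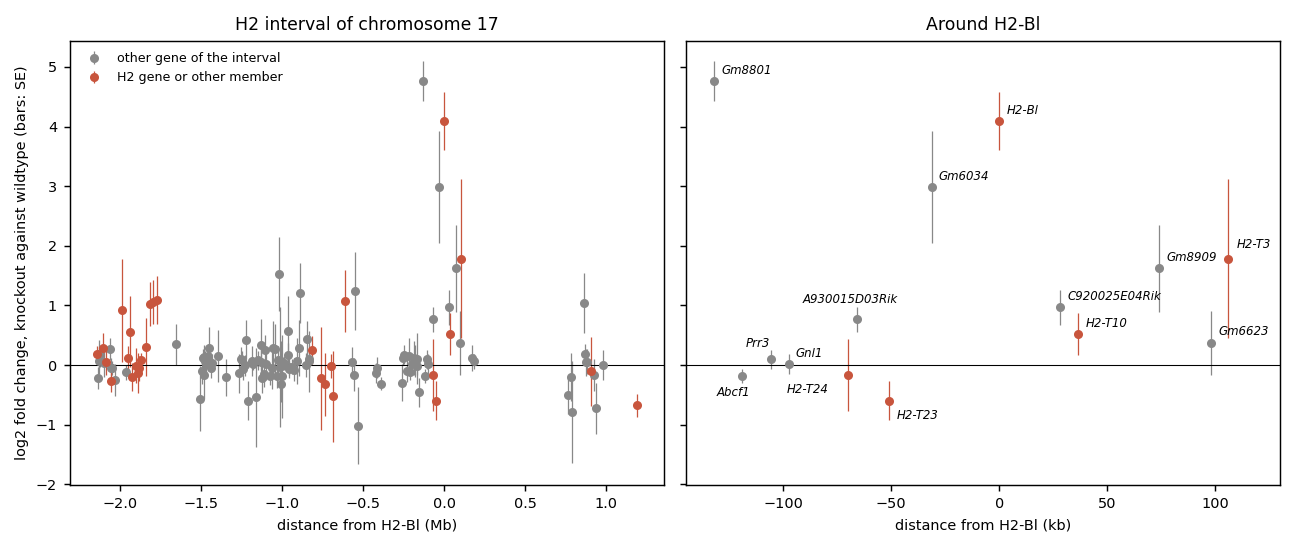
Log2 fold change of knockout against wildtype (vertical axis, bars: SE, edgeR) for the tested genes of the H2 interval of chromosome 17, by distance from H2-Bl in Mb (left) and kb (right), with members in red and other genes in grey. Gm8801 at 4.76 and H2-Bl at 4.09 stand above Abcf1, Prr3, Gnl1, H2-T24 and H2-T23, which lie between them near or below 0. Gm6034 at 2.98 and A930015D03Rik at 0.77 also lie between them.

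Across the whole H2 interval, from H2-Ke2 to H2-M2 (chr17:33938909-37483554), 135 genes could be tested. Of these, 106 were no members, and their median log2 fold change was 0.04. The groups did not overlap in 11 of the 106, of which 7 were higher and 4 lower, against 10.3% of all genes tested. Of the 7, 4 were the neighbours of H2-Bl named above. DESeq2 called 3 genes of the interval, H2-Bl, Gm8801 and A930015D03Rik. The difference was thus not shared by most genes of the interval.

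H2-M3 was the member that was lower in the knockout without overlap. It is a class Ib gene at the far end of the complex (chr17:37270234-37274485, plus strand) whose product shows N-formyl peptides, the kind that starts bacterial and mitochondrial proteins. It had 9.05, 10.4 and 9.34 CPM in the wildtype and 5.18, 6.10 and 6.74 CPM in the knockout libraries, means of 9.61 ± 0.733 and 6.01 ± 0.785 (SD, n = 3 each). Each group was tight, and the lowest wildtype value lay above the highest knockout value. The log2 fold change was −0.68 (SE 0.19, unadjusted 95% interval −1.13 to −0.23), with an adjusted p of 0.597 in edgeR and 0.0566 in DESeq2, and the authors' deposited table gives 0.0550. It stayed between −0.78 and −0.58 under every setting tried, and only 0.576% of its stretches occurred in a gene at another locus. In bulk tissue, fewer cells of a type and less RNA per cell cannot be told apart, here and below.

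The classical class I heavy chains, which carry most antigen presentation to cytotoxic T cells, did not differ detectably. H2-K1 had 101, 98.1 and 161 CPM in wildtype and 119, 141 and 114 CPM in knockout, a log2 fold change of 0.05 (unadjusted 95% interval −0.48 to 0.59). H2-D1 had 42.8, 49.5 and 49.0 CPM in wildtype and 37.6, 70.7 and 59.6 CPM in knockout, a log2 fold change of 0.25 (unadjusted 95% interval −0.31 to 0.81). The groups overlapped for both genes, and the intervals reach further up than down. H2-L, a gene that the b haplotype of C57BL/6 lacks, had 5, 10 and 4 counts in wildtype and 3, 8 and 10 in knockout, a level of at most 0.116 CPM.

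Among the 9 class Ib genes of the Q region, 5 could be tested, 1 with a log2 fold change above 0 and 4 below, and 4 (H2-Q6, H2-Q7, H2-Q8 and H2-Q9) had 0 counts in all libraries. A count of 0 allows up to 3 counts, or 0.0325 to 0.0395 CPM by library, for counting error only. H2-Q6 and H2-Q7, which encode the Qa-2 antigen, share 35.0% and 34.9% of their stretches with other loci, so reads of theirs could have been left uncounted or credited elsewhere. H2-Q4, the most abundant Q gene, had 18.2, 16.7 and 23.4 CPM in wildtype and 16.2, 22.7 and 18.5 CPM in knockout, a log2 fold change of −0.02 (SE 0.20). H2-Q1 varied widely within both groups, with 5.08, 11.1 and 1.78 CPM in wildtype and 9.20, 5.09 and 1.11 CPM in knockout. H2-Q10, a secreted class I chain, had 12, 22 and 13 counts in wildtype and 29, 51 and 18 in knockout, which overlap. H2-Q2 and H2-Q5 lay under 1 CPM in every library. The counts of H2-Q1, H2-Q4 and H2-Q5 are uncertain, since 22.9%, 24.3% and 40.1% of their stretches occur elsewhere.

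Of the 8 genes listed as T genes or other class Ib genes, 6 could be tested, 4 with a log2 fold change above 0 and 2 below. The one not yet described, H2-K2, is a transcribed pseudogene beside H2-K1 and had 5.36, 8.05 and 5.08 CPM in wildtype and 7.26, 8.56 and 6.75 CPM in knockout. Its groups overlapped, with a log2 fold change of 0.29 (SE 0.25). H2-T9 had 0 counts throughout. Among the 12 M genes 2 could be tested, H2-M3 and H2-M5, the second at 0.0585 to 0.192 CPM with overlapping groups. Of the others, 4 had 0 counts in all libraries, and most are known for expression in the vomeronasal organ rather than nerve. The highest of them was H2-M10.2, with 17, 0 and 15 counts in wildtype and 7, 0 and 2 in knockout. No member went from at most 3 counts over one group to at least 30 over the other, so that by this measure no single H2 gene was wholly gained or lost.

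Summed over the 32 class I heavy chain symbols, the libraries held 224, 238 and 335 CPM in wildtype and 237, 301 and 244 CPM in knockout. The difference of the means was −5.15 CPM, smaller than the spread in either group, and it became 29.5 without wildtype 3. Left without the 8 members that share at least 20% of their stretches, the difference was 12.2 CPM. H2-Bl, at 1.10 to 1.82 CPM in the knockout, made up little of that total.

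**Figure D2:**
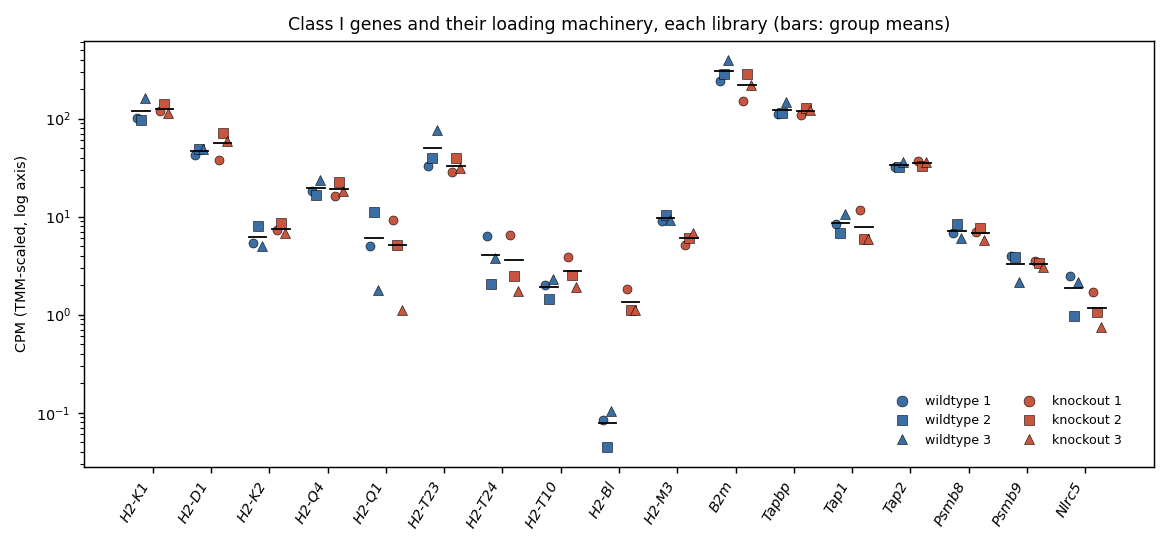
TMM-scaled CPM (log axis) of 17 class I genes and class I machinery genes in each of the 6 libraries, with wildtype in blue, knockout in red and horizontal bars at the group means. The groups stand apart for H2-Bl (0.0445 to 0.105 against 1.10 to 1.82 CPM) and H2-M3 (9.05 to 10.4 against 5.18 to 6.74 CPM) and overlap for the others.

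The partners that supply and load class I showed no detectable difference. None of the 6 was called by edgeR or DESeq2, and none had an unadjusted edgeR p under 0.05. Their log2 fold changes were above 0 for 1 and below 0 for 5, with a median of −0.05. B2m, the most abundant member, had 240, 287 and 396 CPM in wildtype and 153, 284 and 223 CPM in knockout. The log2 fold change was −0.48 (SE 0.28, unadjusted 95% interval −1.16 to 0.19), with knockout 1 lowest and wildtype 3 highest. Tapbp had 112, 113 and 147 CPM in wildtype and 109, 127 and 123 CPM in knockout, a log2 fold change of −0.05 (SE 0.15).

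Of the peptide transporter, Tap1 had 8.41, 6.77 and 10.6 CPM in wildtype and 11.6, 5.91 and 5.96 CPM in knockout. Tap2 had the smallest SE of the tested members, 0.12, at 32.2, 32.1 and 36.2 CPM against 37.1, 33.1 and 36.3 CPM, a log2 fold change of 0.08 (unadjusted 95% interval −0.21 to 0.38). The 2 subunits thus overlapped between groups, Tap1 with a log2 fold change of −0.13 (SE 0.33). The immunoproteasome subunit Psmb8 had 6.84, 8.36 and 6.12 CPM in wildtype and 6.99, 7.67 and 5.84 CPM in knockout. Psmb9 had 3.98, 3.84 and 2.16 CPM in wildtype and 3.51, 3.35 and 3.04 CPM in knockout. Their log2 fold changes were −0.06 (SE 0.21) and −0.01 (SE 0.29). Nlrc5, the class I coactivator, had 2.48, 0.979 and 2.16 CPM in wildtype and 1.71, 1.06 and 0.743 CPM in knockout, a log2 fold change of −0.68 (SE 0.48) with overlapping groups.

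The class II genes H2-Aa, H2-Ab1, H2-Eb1 and Cd74 were higher in 2 of the 3 knockout nerves and near the wildtype level in the third. H2-Aa, the alpha chain of the I-A molecule, had 13.2, 11.3 and 10.5 CPM in wildtype and 36.3, 23.8 and 12.6 CPM in knockout. Its beta chain H2-Ab1 had 9.23, 7.39 and 6.69 CPM in wildtype and 24.03, 14.5 and 8.80 CPM in knockout. In both genes knockout 1 was highest and knockout 2 next, while knockout 3 lay within the wildtype range. H2-Eb1, the beta chain of I-E, had 10.1, 9.43 and 8.22 CPM in wildtype and 31.4, 17.7 and 10.03 CPM in knockout. Cd74 had 31.8, 27.2 and 25.8 CPM in wildtype and 62.6, 49.7 and 30.4 CPM in knockout. The same order of the knockout libraries was seen in all 4 genes. In each of them the wildtype libraries also fell from wildtype 1 to wildtype 3, over a narrower range.

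The log2 fold changes were 1.05 (SE 0.37) for H2-Aa, 1.02 (SE 0.37) for H2-Ab1, 1.09 (SE 0.40) for H2-Eb1 and 0.75 (SE 0.27) for Cd74. The adjusted p values in edgeR were 0.805, 0.842, 0.842 and 0.820, and none passed in DESeq2. Before adjustment the 95% intervals of all 4 excluded 0, as that of 0.18 to 1.93 for H2-Aa. For H2-Aa the log2 fold change was 0.64 without knockout 1 and 1.36 without knockout 3. Over the 6 libraries H2-Aa had 1.43 to 1.65 times and H2-Eb1 1.09 to 1.30 times the CPM of H2-Ab1. The ratio of Cd74 to H2-Ab1 varied more, from 2.61 in knockout 1 to 3.85 in wildtype 3. None of the stretches of the 3 chains or of Cd74 occurred in a gene at another locus. The 4 genes vary as 1 group over the same mice, and their 4 low unadjusted p values are not independent of each other.

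Summed over the 11 class II members, the libraries held 86.4, 79.1 and 75.7 CPM in wildtype and 178, 131 and 83.6 CPM in knockout. The difference of the means was 50.4 CPM, 27.0 CPM without knockout 1 and 74.003 CPM without knockout 3. The other class II members had smaller differences in CPM, and whether their fold changes differ from those of the 4 genes above was not tested. H2-DMa and H2-DMb1, which form the H2-M molecule that trades the invariant chain remnant for peptide, had log2 fold changes of 0.12 (SE 0.20) and −0.20 (SE 0.23). H2-DMb1 and H2-DMb2 share 27.2% and 30.9% of their stretches with other loci, so their counts are uncertain. H2-DMb2, H2-Oa and H2-Ob, of which the last 2 form the inhibitor of H2-M, stood under 1 CPM in every library, with log2 fold changes of 0.56 (SE 0.60), 0.92 (SE 0.86) and 0.30 (SE 0.49). H2-Oa had 0.277, 0.173 and 0.0348 CPM and H2-Ob 0.909, 0.834 and 0.371 CPM in knockout 1, 2 and 3, the same order as the chains, with groups that overlap. Of the 6 class II loading genes, Cd74 included, 5 had a log2 fold change above 0. Ciita had 3.14, 1.72 and 0.901 CPM in wildtype and 5.06, 1.43 and 1.66 CPM in knockout, with the highest value in knockout 1 and no separation of the groups.

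The remaining class II genes were close to silent. H2-Ea-ps, the alpha chain gene of I-E, had 0 counts in all 6 libraries. The b haplotype of C57BL/6 has a deletion in the promoter of this gene and makes no I-E, and the value was the same in both groups. H2-Eb2 had 4, 0 and 3 counts in wildtype and 20, 4 and 0 in knockout.

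**Figure D3:**
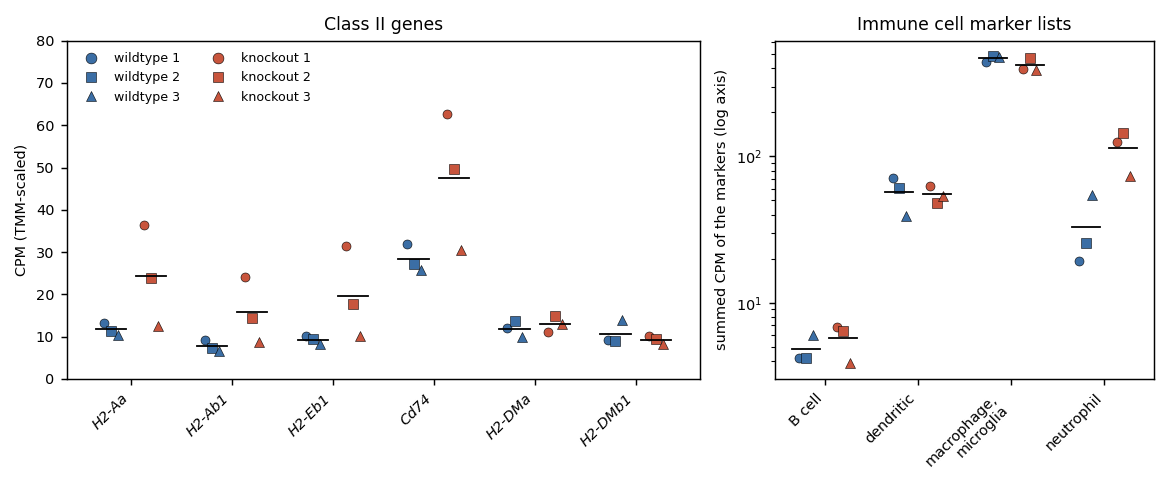
Left, TMM-scaled CPM of 6 class II genes in each library; right, summed CPM (log axis) of the marker lists of 4 immune cell types, with wildtype in blue, knockout in red and horizontal bars at the group means. H2-Aa, H2-Ab1, H2-Eb1 and Cd74 are highest in knockout 1 and next in knockout 2, while knockout 3 lies near the wildtype libraries. The knockout libraries of the B cell list share this order, but its groups overlap and wildtype 3 is its highest wildtype library. Those of the macrophage and microglia list do not share it.

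Markers of the cells that can carry class II were read beside these values. The 17 measured macrophage and microglia markers summed to 441, 484 and 474 CPM in wildtype and 394, 471 and 389 CPM in knockout, with 4 of 17 above a log2 fold change of 0. The 9 dendritic cell markers summed to 71.3, 60.7 and 39.2 CPM in wildtype and 63.1, 48.3 and 53.8 CPM in knockout, most of it Flt3, which had 58.9, 49.1 and 28.3 CPM against 48.0, 38.3 and 44.2 CPM. Of the 6 dendritic cell markers that could be tested, 4 had a log2 fold change above 0. The 8 B cell markers summed to 4.22, 4.23 and 6.05 CPM in wildtype and 6.83, 6.44 and 3.85 CPM in knockout, low levels in which knockout 1 and 2 were the highest. Of the 7 B cell markers that could be tested, 4 had a log2 fold change above 0 and 3 below. The 11 T and NK cell markers summed to 4.62, 3.39 and 5.53 CPM in wildtype and 6.08, 5.67 and 4.46 CPM in knockout. The groups overlapped for these 4 lists, and the knockout libraries of the B cell list and of the T and NK cell list had the order seen in class II. The wildtype libraries of both lists did not have the class II order, with wildtype 3 the highest of them. Neutrophil markers summed to 19.2, 25.6 and 54.5 CPM in wildtype and 125, 144 and 73.8 CPM in knockout, with no overlap. Of the 8 neutrophil markers tested, 7 had a log2 fold change above 0 and 1 below. In knockout 1 almost all of that sum was Ltf, lactoferrin, at 121 CPM, while S100a8 and S100a9 had their lowest values there, at 0.619 and 1.15 CPM. The 9 endothelial markers summed to 352 to 372 CPM in wildtype and 422 to 484 CPM in knockout, with no overlap. Of the endothelial markers 4 had a log2 fold change above 0 and 5 below, and much of the separation lay in Emcn, with 79.0, 113.6 and 113.5 CPM in wildtype and 131, 146 and 214 CPM in knockout. No marker of these lists was called by edgeR or DESeq2, and the part of these cells in the values of class II, H2-Bl or H2-M3 was not tested.

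H2-Aa and H2-Eb1 shared their order of knockout libraries with H2-Ab1 and Cd74, which had no promoter in the set searched. The promoters of H2-Aa and H2-Eb1 are shown as examples, and whether they bear on that order was not tested. Each line gives the 250 bases before the RefSeq start (GRCm38.p6), at chr17:34287824-34288073 on the minus strand for H2-Aa and chr17:34305617-34305866 on the plus strand for H2-Eb1. Capitals mark matches on either strand to ATTGG, the core of the Y box, and to TGACG, the core of the X2 box, which are parts of the module that class II promoters are known for.
H2-Aa: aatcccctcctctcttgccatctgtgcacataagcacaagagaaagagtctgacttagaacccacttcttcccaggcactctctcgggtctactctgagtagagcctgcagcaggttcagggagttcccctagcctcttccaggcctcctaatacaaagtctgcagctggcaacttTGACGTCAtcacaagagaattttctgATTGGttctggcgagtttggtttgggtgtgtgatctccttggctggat
H2-Eb1: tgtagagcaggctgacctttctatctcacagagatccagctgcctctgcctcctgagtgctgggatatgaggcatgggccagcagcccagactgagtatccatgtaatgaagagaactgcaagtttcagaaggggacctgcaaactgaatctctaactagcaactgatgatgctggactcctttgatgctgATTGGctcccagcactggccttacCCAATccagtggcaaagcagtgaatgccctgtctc
H2-Aa holds ATTGG once and TGACG on both strands in an overlap, and H2-Eb1 holds ATTGG on both strands and TGACG on neither. Among 32851 RefSeq promoters of 300 bases, ATTGG was found in 37.4% and TGACG in 20.8%. Of the 37 members with a promoter in that set, 32 held ATTGG and 16 held TGACG, in at least 1 of their promoters. The class I kappa B motif, an NF-kappa B site known from class I promoters and searched as an exact palindrome of 11 bases, occurred in 10 of all the promoters (0.0304%), and 3 of those genes were members, H2-K1, H2-D1 and H2-Q6. Such matches describe the windows only. H2-K1 and H2-D1 share this motif and had the 2 highest mean levels of the class I genes per length of the union of exons. In wildtype, though, H2-D1 did not differ beyond its spread from H2-T23, which lacks the motif. The order of H2-D1 and H2-T23 also depends on the length used. Their unions have 2579 and 2889 bases, but their longest transcripts 2102 and 1472. H2-Q6 had 0 counts, and its reads could have been left uncounted. Whether the motif bears on these levels was not tested.

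Other antigen presentation genes outside the member list, listed in the design, gave the surroundings of these values. All 28 could be tested, none was called by edgeR or DESeq2 or had an unadjusted edgeR p under 0.05, 13 had a log2 fold change above 0 and 15 below, and their range was −0.40 to 0.35 with a median of −0.04. Irf1, an activator of class I genes, had 20.9, 19.3 and 15.1 CPM in wildtype and 20.7, 19.6 and 14.7 CPM in knockout. Its values were close to equal in the groups. Psmb10, the third immunoproteasome subunit, had 23.1, 25.4 and 19.2 CPM in wildtype and 20.4, 25.5 and 25.8 CPM in knockout. Rfx5, which binds the X box of class II promoters, had 21.0, 22.8 and 33.3 CPM in wildtype and 27.9, 25.3 and 24.5 CPM in knockout. The groups overlapped for all of the 28 except Jak2, which was lower, while they did not overlap for 10.3% of all genes tested (4.93% lower). Jak2 had 49.4, 48.2 and 57.8 CPM in wildtype and 44.4, 42.0 and 42.0 CPM in knockout.

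Of the H2 symbols, 2 name genes that lie in the complex and have no part in antigen presentation. H2-Ke2 encodes the prefoldin subunit Pfdn6 and had a log2 fold change of 0.18 (SE 0.14). H2-Ke6, also known as Hsd17b8, encodes a dehydrogenase and had one of −0.27 (SE 0.18).

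Levels per kilobase of exon put the antigen presentation members in order in the wildtype nerve. B2m led with 357 ± 93.4 CPM per kilobase (SD, n = 3), followed by H2-K1 at 40.9 ± 12.2 and Tapbp at 34.2 ± 5.38, which overlap. H2-D1 at 18.3 ± 1.45, H2-T23 at 17.3 ± 8.27 and Cd74 at 16.8 ± 1.88 came next and do not differ beyond their spread. Tap2 followed at 8.86 ± 0.618. H2-Q4 had 7.49 ± 1.37 and H2-M3 6.68 ± 0.51, again within their spread. The class II chains H2-Eb1 (4.76 ± 0.487), H2-Aa (3.08 ± 0.375) and H2-Ab1 (3.03 ± 0.51) came lower by this measure. The order depends on the length used, here the union of all exons of a gene. That union has 3798 bases for H2-Aa, whose longest transcript has 1128, while both have 1438 for H2-M3. Whether these class Ib genes exceed the class II chains per transcript was thus not settled. In the knockout the chains reached 10.1 ± 5.56, 6.38 ± 3.13 and 6.14 ± 3.00, and H2-M3 4.18 ± 0.546. The SDs of the chains there reflect the order of the 3 knockout mice given above.

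**Figure D4:**
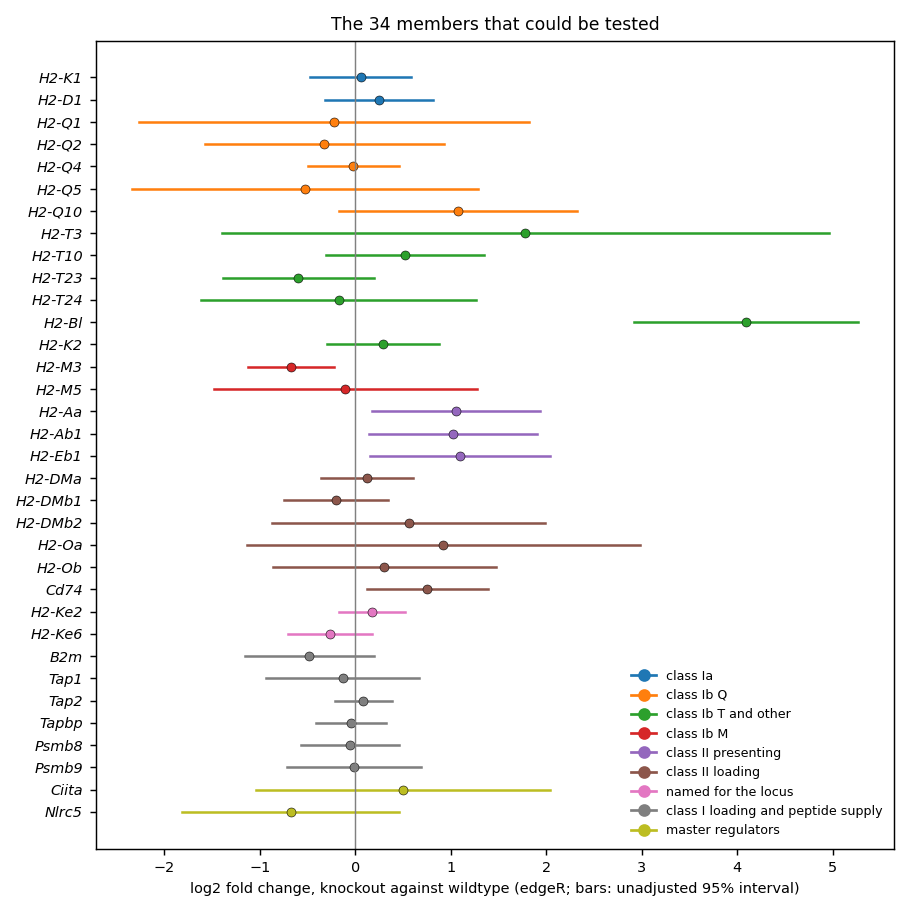
Log2 fold change of knockout against wildtype (edgeR) for each of the 34 tested members, coloured by list, with unadjusted 95% intervals as bars. The intervals of H2-Bl, H2-Aa, H2-Ab1, H2-Eb1, Cd74 and H2-M3 exclude 0 before adjustment, and H2-Bl at 4.09 lies farthest from it.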

How the data were processed

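RNA of auditory nerve from 3 wildtype and 3 Vcan knockout mice was sequenced. HTSeq, DESeq2 and the build mm10 are named in the submitters' processing notes. Their versions, the use of strand and the treatment of reads matching several genes were not stated in those sources. The per-sample values are raw counts deposited by the authors. Per the file headers, the authors' table also holds their mean of normalised counts (a signal), log2 fold change with its standard error, test statistic (a score), p-value and adjusted p-value, used only where named.

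Symbols on 2 rows with identical counts (5) were joined. Genes kept by filterByExpr (16722) were tested with edgeR 4.0.16 in R 4.3.3 (TMM scaling, robust quasi-likelihood F test, 2-sided, Benjamini-Hochberg over all genes, threshold 0.05), with no covariate. The SE is the fold change divided by the square root of F. DESeq2 1.42.0, other scalings and filters, the replicate block and leaving out each library were alternatives. The code was tested on simulated counts. No pair of libraries agreed within sampling noise (lowest chi-square per degree of freedom 39.9).

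Coordinates and promoters are RefSeq's (GRCm38.p6), matched by gene identifier or symbol. H2-L, H2-Q8, H2-Q9 and H2-T9 were not placed on the chromosome. Shared sequence is the percentage of 50-base stretches of the longest GENCODE vM21 transcript found in a gene at another locus. Lengths are unions of exons. The 95% intervals of fold changes come from the SE and cover the spread between libraries, while limits on a count of 0 cover counting error only.

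The members, gene lists, markers and the naming rule (listed core genes, members under 0.05 in any of the 3 tests, and members of at least 1 CPM with no overlap, or with at most 3 counts in one group and at least 30 in the other) were chosen with earlier results of these data known. Of the listed genes outside the members, 1 is not reported here.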

Additional observations from a re-analysis of the deposited data

How the results depend on the processing

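Over all genes, 252 passed with DESeq2, 3 with the replicate number as a block (replicate block) and 3 to 14 with 1 library left out, against 23. DESeq2 called 1 H2 member, and under all other settings run none was called. With genes kept only at a mean of at least 1 CPM, H2-Bl (mean 0.714 CPM) was not tested and so could not be called. Deviations of same-numbered libraries correlated at 0.42, 0.20 and −0.15, and 2 of 6 libraries correlated best with their own number. Such correlations cannot decide whether the numbers pair the mice. The block gave Psmb9 a log2 fold change of 0.034 and Gm8801 an adjusted p of 0.0575 (edgeR).

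Of 241 alternative values over 22 genes, 212 kept direction and side of the threshold, 22 changed sign, 3 passed and 4 no longer did. Leaving out 1 library gave log2 fold changes of −0.32 to 1.05 for Ciita, −0.073 to 0.32 for H2-K1, −0.16 to 0.076 for Psmb8, −0.25 to 0.14 for Psmb9, −0.53 to 0.041 for Tap1, −0.12 to 0.081 for Tapbp, −0.14 to 0.12 for Irf1, −0.027 to 0.19 for Psmb10 and −0.12 to 0.24 for Rfx5. The class I difference ran from −25.9 to 29.5 CPM and that of class II from 27.0 to 74.003. Genes under 0.0395 CPM could not be told from 0.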

Other observations

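The level of H2-K1 relative to B2m within a library, a ratio looked at after the values were seen, was 0.422, 0.342 and 0.408 in wildtype and 0.778, 0.497 and 0.513 in knockout. Every knockout ratio was above every wildtype ratio, and no test was run on it. For H2-K1 and for B2m alone the groups overlapped, and the highest ratio was that of knockout 1, the library with the lowest B2m. The ratio of H2-D1 to H2-K1 overlapped between the groups, from 0.303 to 0.521 over the 6 libraries.

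Gm11127, which overlaps Gm6034 beside H2-Bl and had too few counts to be tested, had 6, 2 and 2 counts in wildtype and 21, 11 and 9 in knockout. Gm8909, on the other side of H2-Bl, had 21, 7 and 7 counts in wildtype and 55, 17 and 32 in knockout, which overlap.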
